A study of Homo sapiens with 24 samples.

Results

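The genes described here are the human zinc finger genes whose symbol is ZNF followed by a number. The count tables hold 475 such features beside ZNF473, which the rule leaves out. The members were selected on their raw counts: a gene entered the set when at least 6 of the 12 day 14 libraries gave it 10 or more raw counts. This left 197 of 475 ZNF features, among 61248 features in all. Since day 14 counts chose the members, their level at day 14 and its difference from day 0 are descriptions with no test. The remaining 278 ZNF features did not reach the rule, and 9 of them had no count at day 14. Just inside it were ZNF761, with 91 counts over the day 14 libraries and 7 libraries of at least 10, and ZNF703, with 104 counts and 6 such libraries. Just outside were ZNF578, with 151 counts and 5 such libraries, and ZNF717, with 164 counts and 5 such libraries.

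The libraries come from H7, an established human embryonic stem cell line. They comprise 2 control lines and 2 lines with a knockout (KO) of BRAT1, a protein that works with the Integrator complex, which trims small nuclear RNAs and ends short transcripts. Each line was sampled undifferentiated at day 0 and as ventrally differentiated neural progenitors at day 14, with 3 biological replicates (A to C) each, so that a genotype has 6 libraries a day and 24 libraries exist in all. Whether a line is 1 clone, and which allele a KO line carries, is not given in the sources used here. In the tests each library counts as independent, although a genotype rests on only 2 lines.

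ZNF genes form the largest family of human transcription factors. Most join an array of C2H2 zinc fingers, which read DNA sequence, to a KRAB domain. That domain recruits TRIM28 and, through it, the histone methyltransferase SETDB1, and many members silence retrotransposons in stem cells and in neural progenitors. A smaller number without KRAB act as activators, as chromatin adaptors or on RNA and ubiquitin. The genes lie in clusters, above all on chromosome 19, and close copies can share reads. How reads that fit several copies were counted is not given in the sources used here.

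Totals ran from 1407832 to 2143871 counts a library at day 0 and from 2228736 to 3726227 at day 14. As a check of the labels, BRAT1 itself had 900, 868 and 836 counts in control line 1 at day 14, 803, 1077 and 414 in control line 2, 30, 21 and 63 in KO line 1, and 248, 227 and 262 in KO line 2, a fall of 2.47 on the log2 scale (SE 0.57, adjusted p = 0.0111). At day 0 BRAT1 had 0 to 10 counts in every library, which checks no label there. Summed levels of the neural progenitor markers were 293 to 513 CPM (counts scaled to a total of 1000000 per library) in the day 14 controls and 719 to 1374 in the day 14 KO libraries, against 30.3 to 142 in the day 0 controls. Neuron markers summed to 74.0 to 131 CPM in the controls and 127 to 305 in the KO libraries, and neural crest markers to 87.0 to 122 and 29.02 to 49.29. Of 15 single neural progenitor markers tested, 10 rose and 0 fell. Neuron markers were mixed, as 5 of 9 tested rose and 2 fell, and of 5 neural crest markers 0 rose and 2 fell. These stand beside 11.0% higher and 10.7% lower of all features. Pluripotency markers overlapped between the days, at 117 to 239 CPM (day 0) and 63.7 to 136 (day 14) in control. In KO they summed to 50.5 to 287 and 74.4 to 145. The part of cell makeup in the ZNF differences was not tested, and in bulk RNA fewer cells of a type and less RNA per cell cannot be told apart.

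A ZNF name in these tables does not always stand for ZNF mRNA. Where an antisense gene overlaps a coding gene, 1228 of 1835 pairs (66.9%) had more counts under the antisense name, although coding genes usually give far more RNA. Many counts thus seem to sit under the name on the strand opposite the transcribed gene. Of the 197 ZNF genes, 85 (43.1%) had exons overlapped by exons of a gene on the other strand, against 131 of all 475 ZNF features (27.6%). A further 51 lay within the body of an opposite gene, 14 and 15 had a convergent or a divergent neighbour within 5000 bases, and 32 (16.2%) had none of these, against 28.4% of all ZNF features. Among all features tested between the genotypes at day 14 and placed on the genome, 51.4% had overlapping exons and 11.4% none of these. Among the coding ones it was 45.8% and 14.5%, so exon overlap was no more common in the ZNF genes than in these. Counts under a ZNF name may therefore be mRNA of the opposite gene, antisense RNA, or reads of the ZNF mRNA on the wrong strand, and these cannot be told apart from the counts. "Level" and "rose" below refer to counts under the ZNF name.

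At day 14 the ZNF genes were mostly low. Their mean level over the 12 libraries had a median of 10.9 CPM, with quartiles of 5.65 and 24.2, and ran from 2.49 to 642. Together they held 0.608% of day 14 counts, and the 6 highest genes held 33.0% of that. The share of each library was 0.610% ± 0.0203 in the controls (SD, n = 6) and 0.609% ± 0.0372 in the KO libraries (SD, n = 6). The 2 shares differed by less than the spread between libraries. On chromosome 19 lay 93 of the 197 (47.2%), against 240 of all 475 ZNF features (50.5%). Chromosome 16 held 19 and chromosome 7 held 13.

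ZNF135, a KRAB gene at the end of chromosome 19 (58059239 to 58086310, plus strand, GRCh38), was the highest at 642 CPM. Its exons overlap those of ZSCAN18, and its level per length was 100 CPM per kilobase of exon. ZNF394 followed on that scale with 67.2 CPM per kilobase and ZNF3 with 52.2, opposite ZNF789 and ZSCAN21 respectively. ZNF483 reached 40.7 CPM per kilobase, ZNF814 29.2 and ZNF891, opposite ZNF140, 16.3. Of these 6 genes with the highest mean CPM, only ZNF135 passed the test between genotypes, as described below.

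The day 14 level of most members stood above that at day 0. In the controls the median member went from 1.97 CPM at day 0 to 10.5 at day 14, and in the KO lines from 2.63 to 11.1. In each genotype 177 of 197 genes had a higher mean at day 14 and 20 a lower one. A day 0 library gave a count to 90 to 144 of the 197 genes and a day 14 library to 193 to 197, at totals that also differed. In 42 genes every day 14 library lay above every day 0 library, ZNF135 and ZNF814 among them. ZNF135 ran from 60.5 to 200 CPM at day 0 (median 123) and from 468 to 770 at day 14 (median 636). The rule asked for counts at day 14, so this direction is partly fixed by the choice of members.

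**Figure D1:**
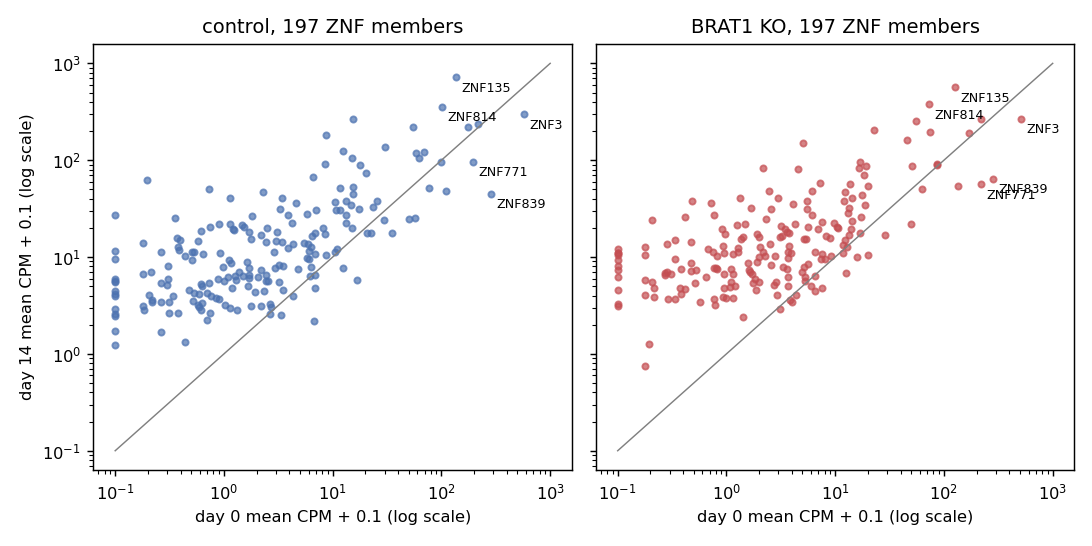
Mean CPM of the 197 ZNF genes at day 0 (x) and day 14 (y), each plus 0.1 on a log scale, for control (left) and BRAT1 KO (right) libraries, 6 a day. Each point is 1 gene and the line marks equal levels; 177 genes lie above it in each panel, while ZNF3, ZNF771 and ZNF839 lie below.

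A few genes went against that direction, and these were picked after their values were seen. In 13 genes the day 0 mean was the higher one in both genotypes, and in 2 of them, ZNF3 and ZNF219, every day 0 library exceeded every day 14 library. ZNF3 ran from 355 to 688 CPM at day 0 (median 572) and from 185 to 330 at day 14 (median 294). ZNF219 ran from 78.1 to 205 CPM at day 0 and from 37.5 to 62.3 at day 14. ZNF839, opposite CINP, had the widest day 0 range of the higher genes, 23.2 to 920 CPM, with low and high libraries in every line, and 26.8 to 78.8 CPM at day 14.

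Between KO and control at day 14 ZNF genes passed the test in both directions. Of the 197 genes, 188 passed the filter on low counts and were tested, and 33 passed an adjusted p of 0.05 in edgeR's quasi-likelihood test. Of these, 22 were higher and 11 lower in KO, whereas a fit with the 4 lines as groups gave 20 higher and 21 lower. The main count is 17.6% of the ZNF genes tested, beside 21.7% of all 11408 features tested, and 22 and 11 stand beside 11.0% higher and 10.7% lower over all features. The share called was thus near the background. The median log2 fold change was 0.13 over the ZNF genes and 0.07 over all features. All 33 had the same direction in each of the 4 pairings of a KO line with a control line. The pairings use the libraries that gave the call, so this is largely fixed by it and is no separate support. In 14 the rise was at least 1 on the log2 scale, and in 5 the fall. The 14 become 8 without the 6 genes that the count rule admitted mainly through the KO libraries, given below. Without each library in turn, 20 of the 33 passed every time and 13 missed the threshold at least once. Without control line 1 only 14 ZNF genes passed, and without control line 2 only 11, of which 13 and 10 are among the 33.

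The 22 higher genes include 6 that the count rule admitted mainly through the KO libraries. In 17 genes fewer than 3 control libraries had 10 counts. Of these 14 were tested and 6 were higher in KO, a direction partly fixed by the rule: ZNF350, ZNF766, ZNF608, ZNF568, ZNF570 and ZNF358. In 7 genes fewer than 3 KO libraries had 10 counts, and none of the 3 tested passed. Among the 173 genes with at least 3 such libraries in each genotype, 171 were tested, 16 rose and 11 fell, with a median of 0.10. Of these 27 genes 14 passed without each library in turn.

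**Figure D2:**
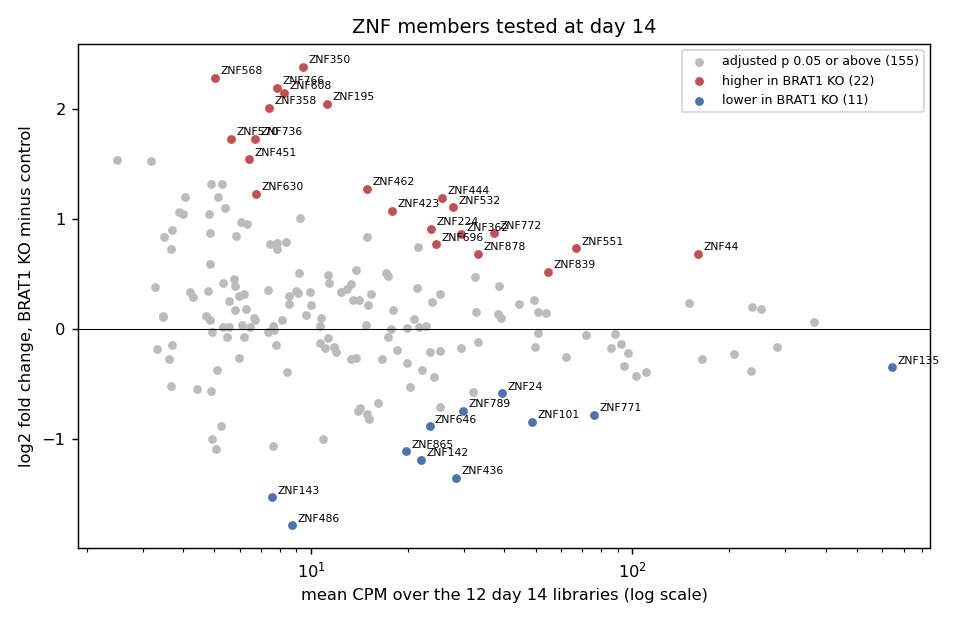
Log2 fold change of BRAT1 KO over control at day 14 (y) against mean CPM over the 12 libraries (x, log scale) for the 188 ZNF genes tested. Red points are the 22 higher genes, blue the 11 lower and grey the 155 that did not pass; most large rises lie at low levels.

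One technical measure moved with genotype and stands beside the differences below. The wrong-strand percent is the counts under coding genes as a percent of those under the noncoding feature opposite, over pairs without a ZNF member. It was 2.02 ± 0.248 in the day 14 controls and 2.87 ± 0.712 in the KO libraries (SD, n = 6 each, exact two-sided permutation p = 0.0238), or 0.51 on the log2 scale. KO line 1 replicates A and B had 2.15 and 2.07, within the control range of 1.58 to 2.29. Line 1 C and line 2 A, B and C had 3.70, 2.92, 2.71 and 3.68, above every control. All 22 ZNF genes that rose did so by more than 0.51, but the test that picked them seldom passes smaller changes. The comparison is therefore nearly fixed in advance, and the part of the wrong-strand shift in these rises was not tested. Adding the percent to the fit as a covariate left 16 ZNF genes past the threshold, beside 13.1% of all features, and 10 of the 22 rises and 3 of the 11 falls still passed. Without the 6 genes admitted through the KO libraries it was 7 of 16 rises.

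Among the rises, ZNF195 stood apart most clearly. ZNF195, a KRAB gene on chromosome 11 (3339261 to 3379222, minus strand), had 18, 11 and 23 counts in control line 1, 11, 11 and 8 in control line 2, 37, 56 and 54 in KO line 1, and 69, 42 and 72 in KO line 2. The groups did not overlap. It rose from 4.27 ± 1.68 to 18.1 ± 4.92 CPM (SD, n = 6 each), by 2.05 on the log2 scale (SE 0.34, adjusted p = 6.88e-05, with the covariate 0.00102). It passed under each of the 25 other settings, at adjusted p-values up to 0.0109. ZNF736 rose by 1.74 (SE 0.62, adjusted p = 0.0460, with the covariate 0.0855) from a similar level, at 3.08 ± 2.53 and 10.3 ± 5.72 CPM. It missed the threshold under 15 of the 25 other settings, at up to 0.231.

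The 6 genes that the rule admitted mainly through the KO libraries are given as values, with no test. ZNF350, known as a partner of BRCA1 that represses transcription, lies on chromosome 19 (51964343 to 51986856, minus strand), within the body of the antisense gene ZNF350-AS1. It had 7, 9 and 21 counts in control line 1, 8, 10 and 3 in control line 2, 49, 51 and 65 in KO line 1, and 33, 63 and 30 in KO line 2, so that 2 control libraries reached 10. Its level was 3.00 ± 1.95 CPM in control and 15.9 ± 4.23 in KO (SD, n = 6 each), a log2 difference of 2.39. ZNF766, a KRAB gene, had 16, 3 and 11 counts in control line 1, 7, 9 and 7 in control line 2, 40, 23 and 58 in KO line 1, and 21, 32 and 67 in KO line 2. Its level was 2.76 ± 1.21 and 12.9 ± 5.31 CPM, a log2 difference of 2.19.

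The other 4 had a wider spread. ZNF608 had 3, 9 and 8 counts in control line 1, 7, 27 and 4 in line 2, 36, 17 and 84 in KO line 1, and 37, 37 and 46 in line 2, a log2 difference of 2.15. The KRAB gene ZNF568 had 13, 8, 4, 5, 3 and 0 counts in the 6 controls and 8, 17, 60, 17, 13 and 49 in the 6 KO libraries, a log2 difference of 2.29. Its highest values were in replicate C of each KO line, 2 of the 4 libraries of high wrong-strand percent. ZNF570 had 3, 7, 7, 10, 13 and 8 counts in the controls and 12, 18, 35, 29, 22 and 47 in KO, a log2 difference of 1.73. ZNF358 is given below with the gene opposite it.

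**Figure D3:**
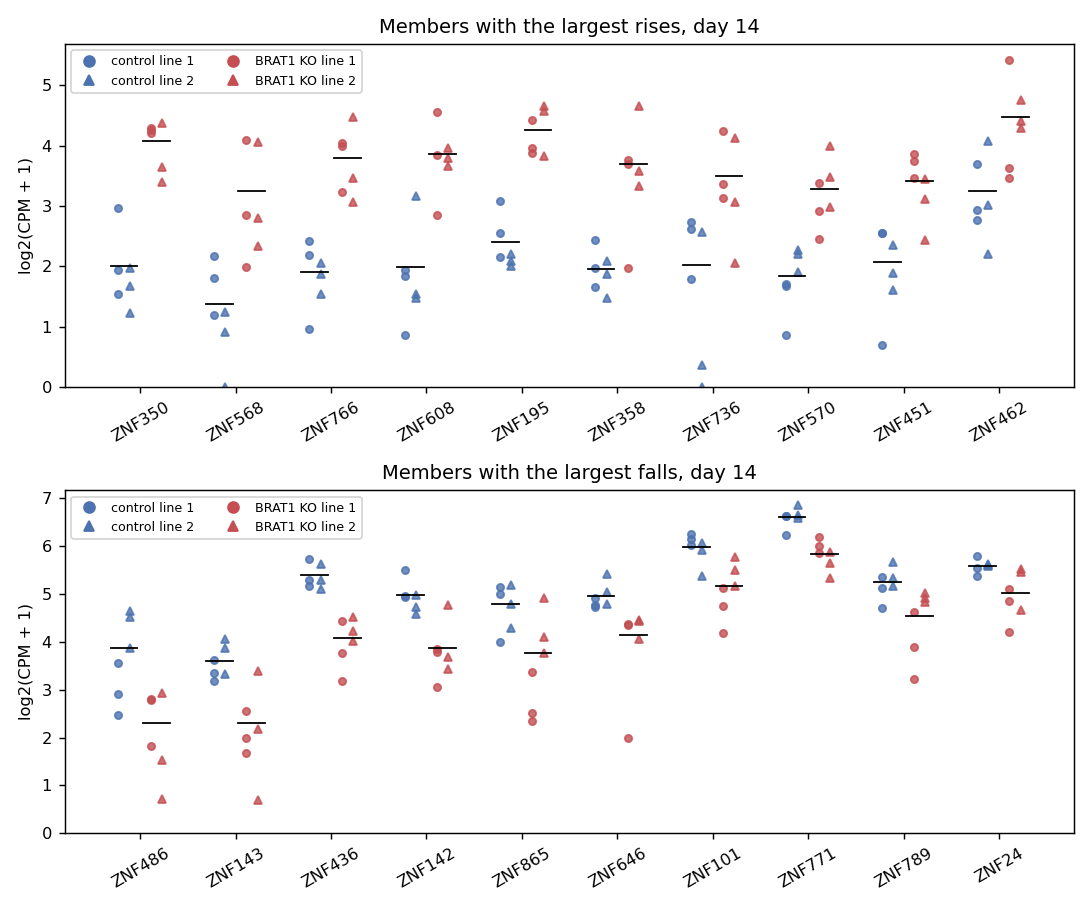
Level in each day 14 library, as log2(CPM + 1), of the 10 ZNF genes with the largest rises (top) and the 10 with the largest falls (bottom). Blue is control and red BRAT1 KO, circles are line 1 and triangles line 2, and bars mark the mean of 6 libraries. ZNF350, ZNF766, ZNF195 and ZNF570 separate fully in the top panel, and ZNF436, ZNF771 and ZNF646 in the bottom one. ZNF350, ZNF766 and ZNF570 were admitted mainly through the KO libraries, so the rule partly fixed their direction.

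At higher levels the rises were smaller. ZNF44 (chromosome 19), named after its values were seen, had 434, 457 and 405 counts in control line 1, 394, 403 and 254 in line 2, 547, 572 and 599 in KO line 1, and 617, 604 and 650 in line 2. All KO libraries were above all controls, at 122 ± 13.1 and 197 ± 19.99 CPM (SD, n = 6 each), a log2 change of 0.69 (SE 0.13, adjusted p = 0.000454, with the covariate 0.000205). Its adjusted p was 0.0735 without control line 2 and 0.105 with counts summed per line. ZNF551, named likewise, went from 50.2 ± 6.15 to 83.9 ± 16.9 CPM, by 0.73 (SE 0.18, adjusted p = 0.00341, with the covariate 0.000445). It missed the threshold with counts summed per line (0.110) and without control line 1 (0.0624) or control line 2 (0.0822). The rises of 0.52 to 1.23 in the remaining genes, ZNF839, ZNF878, ZNF696, ZNF362, ZNF772, ZNF224, ZNF532, ZNF444 and ZNF630, had adjusted p-values between 0.00226 and 0.0483. Of these genes all but ZNF224, ZNF532 and ZNF444 missed the threshold without 1 library or another, at up to 0.136.

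Among the falls, ZNF436, ZNF771 and ZNF646 separated the genotypes fully. ZNF436 (chromosome 1, 23359448 to 23369442, minus strand) had 128, 164 and 118 counts in control line 1, 177, 114 and 85 in control line 2, 55, 22 and 47 in KO line 1, and 63, 56 and 48 in KO line 2. It fell from 40.7 ± 7.43 to 16.0 ± 5.19 CPM, a log2 change of -1.36 (SE 0.25, adjusted p = 0.000196, with the covariate 0.0149), and passed under each of the 25 other settings. It lies within the body of ZNF436-AS1. ZNF771, opposite DCTPP1, went from 96.2 ± 13.1 to 56.2 ± 11.2 CPM, a log2 change of -0.78 (SE 0.17, adjusted p = 0.00121, with the covariate 0.102, over the other settings 0.000111 to 0.115).

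ZNF143 is an activator that binds promoters of small nuclear RNA genes and of many coding genes. It had 34, 36 and 25 counts in control line 1, 33, 46 and 35 in control line 2, 13, 6 and 11 in KO line 1, and 27, 2 and 11 in KO line 2. KO line 2 replicate A, at 9.45 CPM, lay within the control range, and the other 5 KO libraries lay below it. The level went from 11.1 ± 2.98 to 3.92 ± 3.04 CPM, a log2 change of -1.54 (SE 0.46, adjusted p = 0.0152, with the covariate 0.177, over the other settings 0.00372 to 0.177). ZNF486, a KRAB gene, fell most, by 1.79 on the log2 scale (SE 0.48, adjusted p = 0.00837, with the covariate 0.169), from 13.5 ± 7.95 to 3.93 ± 2.54 CPM, and over the other settings its p ran from 0.000738 to 0.406.

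ZNF142 fell by 1.19 on the log2 scale (SE 0.28, adjusted p = 0.00254, with the covariate 0.00259, over the other settings 0.000204 to 0.0685), and BCS1L, whose exons lie opposite, had a log2 change of 0.11 (adjusted p = 0.707). ZNF865 fell by 1.12 (SE 0.35, adjusted p = 0.0245), with 11, 13 and 35 counts in KO line 1 and 46, 40 and 91 in KO line 2. Its p was 0.0507 without control line 2 B and 0.0564 without KO line 1 C. ZNF646, ZNF101, ZNF789 and ZNF24 had log2 fold changes of -0.89, -0.85, -0.75 and -0.59. ZNF646 had a p of 0.0754 without control line 2 A and 0.0567 without KO line 2 A. ZNF24, which takes part in the growth of neural progenitors and in myelination, stood at the threshold (adjusted p = 0.04998), and ZNF789 at 0.0480. ZNF24 missed the threshold without any 1 of 8 libraries, at up to 0.09995, and ZNF789 without any 1 of 7, at up to 0.110. ZNF135, the highest gene, had 2554, 2390, 1924, 2600, 2614 and 1685 counts in the controls and 1487, 1719, 1743, 1829, 1546 and 1986 in the KO libraries. That is 717 ± 55.3 and 567 ± 77.3 CPM, a log2 change of -0.35 (SE 0.12, adjusted p = 0.0328, with the covariate 0.358, the highest of the other settings). Its p was 0.0592 without control line 1 B, 0.0611 without control line 2 C and 0.0875 without KO line 1 C.

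In 11 of the 188 genes tested (5.85%) the libraries of the 2 genotypes did not overlap, beside 10.7% of all features. All but ZNF510, whose adjusted p was 0.0502, are among the 33. Over the 171 genes with at least 3 libraries of 10 counts in each genotype it was 8 (4.68%). By what lies opposite, 7 rose and 6 fell of the 82 tested with overlapping exons, 10 and 3 of the 51 within a gene body, 0 and 1 of the 13 with a convergent gene, 2 and 0 of the 14 with a divergent gene, and 3 and 1 of the 28 with none. On chromosome 19, 11 rose and 4 fell of 89 tested, and elsewhere 11 and 7 of 99. The classes in that order had 15.9%, 25.5%, 7.69%, 14.3% and 14.3% called. Chromosome 19 had 16.9% and the rest 18.2%, all beside 21.7% of all features. These rises include the 6 genes admitted through the KO libraries, of which all but ZNF608 lie on chromosome 19. ZNF350, ZNF766 and ZNF608 are in the gene body class, ZNF358 and ZNF570 have overlapping exons, and ZNF568 has a divergent gene. Whether these classes differ was not tested.

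Of 30 ZNF genes listed for a known role, 19 are members and 17 were tested. Of these 3 rose and 2 fell (29.4%, beside 21.7% of all features). Among those with roles in neural development, ZNF423, a partner of BMP and retinoic acid signalling, had 46, 28, 34, 52, 53 and 12 counts in the controls and 23, 63, 174, 29, 40 and 147 in the KO libraries. Only the C replicates of both KO lines (46.7 CPM each) and line 1 B (23.0) were above all controls, which ran from 5.38 to 15.6. Its log2 fold change was 1.08 (SE 0.37, adjusted p = 0.0385, with the covariate 0.868, the highest of the other settings). ZNF462, a neurodevelopmental disease gene, had 44, 21, 18, 26, 54 and 8 counts in the controls and 27, 31, 155, 58, 59 and 82 in KO, a log2 change of 1.28 (SE 0.35, adjusted p = 0.00975, with the covariate 0.658, over the other settings 0.00419 to 0.698). Without the 4 KO libraries of high wrong-strand percent neither passed, and ZNF423 missed the threshold without any 1 of 8 libraries, at up to 0.128. ZNF521, ZNF335, a microcephaly gene, and ZNF292 did not pass, at 0.34 (SE 0.39), 0.08 (SE 0.47) and 0.51 (SE 0.27).

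**Figure D4:**
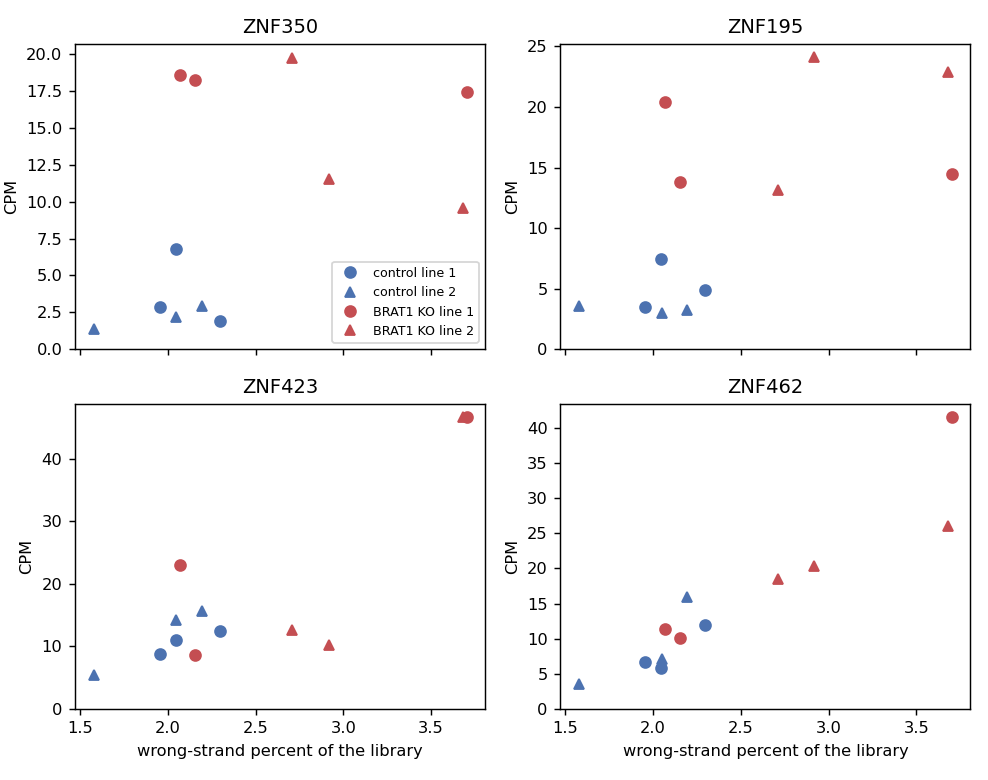
CPM of ZNF350, ZNF195, ZNF423 and ZNF462 (y) in each day 14 library against the wrong-strand percent of that library (x). Blue is control and red BRAT1 KO, circles are line 1 and triangles line 2. KO line 1 A and B lie within the control range on x. Both are above all controls for ZNF195, only B is for ZNF423, and neither is for ZNF462. Both are also above for ZNF350, which was admitted mainly through the KO libraries, so the rule partly fixed that direction.

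Among the listed genes of chromatin and RNA roles ZNF451, a SUMO ligase, and the 2 falls ZNF143 and ZNF24 passed. ZNF274, which brings SETDB1 to ZNF clusters, went from 7.79 ± 1.35 to 10.2 ± 5.49 CPM (log2 change 0.35, SE 0.38, adjusted p = 0.553). ZNF598, a ubiquitin ligase of collided ribosomes, and ZNF638 were at 0.02 (SE 0.52) and 0.01 (SE 0.48). ZNF207, a spindle protein, was at 1.06 (SE 0.54, adjusted p = 0.170) and ZNF217 at 0.91 (SE 0.56, adjusted p = 0.264). ZNF326, an elongation and splicing factor, was at 0.30 (SE 0.38), ZNF384 at 0.13 (SE 0.24), ZNF592 at 0.35 (SE 0.63) and ZNF687 at -0.13 (SE 0.38). ZNF445, an imprinting regulator, and ZNF398 did not pass the filter on low counts.

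Where the exons of a single other gene lie opposite, that gene's own row gives a second reading of the locus. This reading was chosen after the data were seen. Of 71 ZNF genes with such a partner, 33 had more day 14 counts under the ZNF name and 38 under the partner. In 55 pairs both were tested, which are 49 distinct pairs, since 6 pairs of members are counted from each side. The ZNF gene alone passed in 8, beside 21.7% of all features tested. Among these, ZNF358 and ZNF570 were admitted mainly through the KO libraries, so the rule partly fixed their direction. The partner alone passed in 13, which count ZNF570 and ZNF789 again from the side of ZNF569 and ZNF394, and both in 1. That pair is ZNF451 and its antisense gene ZNF451-AS1 on chromosome 6. ZNF451 had 18, 2, 15, 15, 7 and 6 counts in the controls and 27, 37, 46, 22, 14 and 31 in the KO libraries, a log2 change of 1.54 (SE 0.47, adjusted p = 0.0175, with the covariate 0.0602, over the other settings 0.00474 to 0.238). ZNF451-AS1 held 4294 counts to the 240 of ZNF451 and fell from 146 ± 19.8 to 83.5 ± 13.8 CPM, a log2 change of -0.81 (SE 0.16, adjusted p = 0.000523). The 2 names of 1 locus thus moved in opposite directions.

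Pairs in which the partner carried most counts were read the same way. In 12 pairs the partner had at least 1000 counts and the ZNF gene at most 10 percent of that. The ZNF counts were a median of 4.09% of the partner's in control and 5.23% in KO, and the percent was higher in KO in 9 of 12. For ZNF451 it was 2.27% and 11.7%, for ZNF593 against ZNF593OS 4.96% and 12.8%, and for ZNF224 against ZNF225-AS1 4.17% and 9.41%. ZNF358 had 56 counts against 7331 of ENSG00000269371 in the controls (0.764%) and 224 against 5825 in KO (3.85%). Its log2 difference was 2.01, given with no test since the rule admitted it mainly through the KO libraries, and that of ENSG00000269371 was -0.26 (adjusted p = 0.199). The wrong-strand percent over the other pairs went from 2.02 to 2.87, as given above.

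Partners that passed where the ZNF gene did not include FANCA, a DNA repair gene opposite ZNF276, which fell from 264 ± 12.3 to 169 ± 42.6 CPM (log2 change -0.67, SE 0.13, adjusted p = 0.000575). ZNF276 was at -0.22 (adjusted p = 0.377). SEPTIN1, opposite ZNF48, rose by 0.85 (adjusted p = 0.000226) and TIGD7, opposite ZNF263, by 0.67 (adjusted p = 0.0105), with ZNF48 at -0.57 and ZNF263 at -0.23, neither past the threshold. ZNF8-DT, opposite ZNF544, fell by 0.83 on the log2 scale (adjusted p = 0.00358). Over all 475 ZNF features, 79 opposite features were tested, of which 7 rose and 11 fell (22.8%, beside 21.7% of all features). Some of these are ZNF members themselves, among them ZNF570, which was admitted mainly through the KO libraries, and ZNF789. Of the 63 that are no member, 6 rose and 10 fell.

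**Figure D5:**
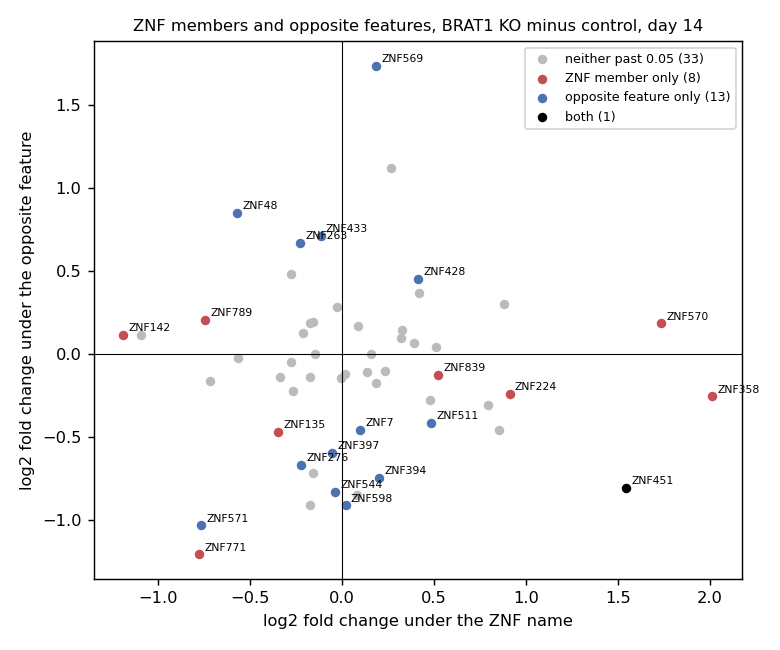
Log2 fold change of BRAT1 KO over control at day 14 under the ZNF name (x) and under the feature whose exons lie opposite (y), for the 55 pairs with both tested. Red points passed for the ZNF gene only (8), blue for the opposite feature only (13) and black for both (1), which is ZNF451 in the lower right. The red points ZNF358 and ZNF570 were admitted mainly through the KO libraries, so the rule partly fixed their direction. The blue points ZNF569 and ZNF394 are the pairs of ZNF570 and ZNF789 seen from the other side.

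Promoters were read from RefSeq on GRCh38.p14, as 250 bases before to 50 after each start, and 171 of the 197 genes had 1 or more (237 windows). The letters ACTACAA, on either strand (TTGTAGT), are part of the element that ZNF143 binds. They occurred in 16 of 237 member windows (6.75%), in 30 of 517 windows of all ZNF genes (5.80%) and in 974 of 35116 windows of all genes (2.77%). Among the genes that rose, 3 of 30 windows held them, and among those that fell 0 of 13. The rises include genes that the count rule admitted mainly through the KO libraries, which partly fixed their direction. Among these are ZNF358, which holds the letters, and ZNF350, which does not. Whether the windows of rises and falls differ was not tested. A match is a description and no proof of a site. The median window held 23 CG pairs in the members and 14 over all genes. The windows below are those of the 2 named genes higher in KO that hold the letters, in capitals, and of ZNF350, ZNF195 and ZNF143 without them. They are, in order, chr6:57089938-57090237 (plus strand), chr19:7515853-7516152 (plus), chr19:51986791-51987090 (minus), chr11:3379097-3379396 (minus) and chr11:9460762-9461061 (plus).
ZNF451: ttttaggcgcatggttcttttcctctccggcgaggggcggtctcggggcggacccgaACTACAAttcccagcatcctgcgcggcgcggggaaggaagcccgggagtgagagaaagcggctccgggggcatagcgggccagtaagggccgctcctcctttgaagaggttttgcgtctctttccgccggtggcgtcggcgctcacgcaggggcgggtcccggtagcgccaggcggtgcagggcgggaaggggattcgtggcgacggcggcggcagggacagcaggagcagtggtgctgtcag
ZNF358: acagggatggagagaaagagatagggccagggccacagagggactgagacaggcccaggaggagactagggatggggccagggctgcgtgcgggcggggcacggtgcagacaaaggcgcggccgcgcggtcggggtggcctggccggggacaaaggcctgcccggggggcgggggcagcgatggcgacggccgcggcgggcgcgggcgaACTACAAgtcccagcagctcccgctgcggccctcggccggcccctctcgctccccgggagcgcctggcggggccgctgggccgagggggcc
ZNF350: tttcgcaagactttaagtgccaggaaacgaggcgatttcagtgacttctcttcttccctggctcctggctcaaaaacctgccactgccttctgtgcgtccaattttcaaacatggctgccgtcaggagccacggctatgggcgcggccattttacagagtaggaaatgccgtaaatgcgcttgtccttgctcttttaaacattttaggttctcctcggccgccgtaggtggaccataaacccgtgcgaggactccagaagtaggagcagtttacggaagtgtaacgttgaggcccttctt
ZNF195: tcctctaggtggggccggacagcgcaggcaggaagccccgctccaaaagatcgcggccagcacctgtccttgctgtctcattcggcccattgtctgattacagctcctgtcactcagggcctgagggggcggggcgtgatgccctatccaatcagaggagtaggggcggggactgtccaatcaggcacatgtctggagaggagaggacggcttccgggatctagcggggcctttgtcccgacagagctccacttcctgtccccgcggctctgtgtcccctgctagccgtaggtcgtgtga
ZNF143: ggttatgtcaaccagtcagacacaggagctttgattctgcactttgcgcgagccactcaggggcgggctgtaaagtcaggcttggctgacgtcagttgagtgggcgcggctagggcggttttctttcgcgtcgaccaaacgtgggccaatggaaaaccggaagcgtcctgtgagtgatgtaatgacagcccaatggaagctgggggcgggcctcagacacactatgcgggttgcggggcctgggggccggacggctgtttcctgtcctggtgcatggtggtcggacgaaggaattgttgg

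Lines of the same genotype differed at day 14 in few ZNF genes. Between the 2 control lines none of 197 passed in edgeR or DESeq2 (6 at an unadjusted p under 0.05), beside 0.107% of all 15000 features (0.0933% higher in line 2 and 0.0133% lower). Between the KO lines 1 passed, ZNF891, beside 1.23% of all features (0.827% higher in line 2 and 0.4% lower), and 21 did at an unadjusted p under 0.05. The percents are for adjusted p. The unadjusted counts have no share of all features beside them and are not read as particular to ZNF genes. ZNF891 had 861, 919 and 1205 counts in KO line 1 and 665, 674 and 587 in KO line 2. Line 1 was above line 2 in every library, at 326 ± 7.90 and 210 ± 23.0 CPM (SD, n = 3 each), a log2 change of -0.68 for line 2 over line 1 (SE 0.17, adjusted p = 0.0330). The control lines stood at 249 ± 16.5 and 220 ± 26.4 CPM.

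At day 0 no difference between the genotypes was detectable. Of the ZNF genes 46 passed the filter and 0 passed the test, beside 0.0% of all 4832 features tested, in edgeR and in DESeq2. At an unadjusted p under 0.05 there was 1 of the 46, ZNF747, also with no share of all features beside it. It had 130, 37, 34, 167, 161 and 14 counts in the controls and 3, 19, 50, 43, 20 and 24 in KO, which overlap. Whether the genotype difference itself changes between day 0 and day 14 was not tested.

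The co-repressor genes that KRAB zinc fingers work through were read from a list of 27, of which 21 were tested. Under TRIM28, the scaffold, the level was 25.8 ± 8.42 CPM in control and 24.01 ± 5.95 in KO (log2 change -0.13, SE 0.25, adjusted p = 0.760), and under SETDB1 16.3 ± 5.88 and 18.3 ± 3.04. The remodeller CHD3 rose from 9.51 ± 4.44 to 27.8 ± 9.33 CPM (log2 change 1.51, SE 0.30, adjusted p = 0.000451). MORC2, which works with the HUSH silencing complex, rose by 1.13 (adjusted p = 0.0228). CBX3, a heterochromatin protein whose exons lie opposite those of HNRNPA2B1, rose by 0.55 (adjusted p = 0.0357). These were the only 3 of the 21 that passed (14.3%, beside 21.7% of all features), and none fell.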

How the data were processed

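The authors deposited raw counts per feature for 24 libraries, made from poly(A) RNA by Click-Seq, per the labels' protocols. The submitters' processing notes name bcl2fastq 2.20.0, STAR 2.7.9a, featureCounts of Subread 2.0.1, DESeq2 1.34.0, R 3.5.1 and the GRCh38 genome. Neither the strand setting nor the annotation release is given in the sources used here.

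CPM are counts scaled to a library total of 1000000. Tests used edgeR 4.0.16 (R 4.3.3) on all features: TMM scaling, the filterByExpr filter, a robust quasi-likelihood F test and Benjamini-Hochberg adjustment, called at 0.05. Tested on simulated data for KO against control at day 14 (11408 features), the test recovered 15% of the genes changed 2-fold and 96% of those changed 4-fold. The simulation changed 100 features by each fold, all above a minimum level, with the same spread for every feature. In the data 2474 features were called, so these percents do not give the recovery for the ZNF genes, least of all the low ones. DESeq2 1.42.0, RLE scaling, no filter, a replicate block, fits by line, a wrong-strand covariate and leaving out lines or libraries were alternatives. The split by the libraries that admitted a gene was added after seeing the data. Genes were placed by GENCODE release 29 (GRCh38), all 197 matched, and an opposite gene needed 100 bases of exon overlap.

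The members and lists were chosen with earlier results of these data known. Named genes are the 10 largest rises and 10 largest falls past the threshold (2 CPM or more, same direction in all 4 line pairings), the 6 highest levels, members that passed between lines and the listed roles.

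Totals of 1407832 to 3726227 counts a library leave few counts for the low genes, whose counts are printed.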

Additional observations from a re-analysis of the deposited data

Results flagged for a closer look

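Dixon's test was applied to 108 groups of 6 day 14 libraries, control or KO, of 53 genes including BRAT1 and of the wrong-strand percent, and 7 groups had 1 library far from the rest. Chance gives such a library in about 1 in 20 groups.

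For ZNF350, control line 1 replicate C stood at 6.78 CPM, above the other controls at 1.35 to 2.94, and below every KO library. For ZNF608, control line 2 B stood at 7.95 CPM against 0.815 to 2.83. For ZNF142, control line 1 B stood at 44.4 CPM against 22.9 to 30.3, and KO line 2 C at 26.1 CPM against 7.30 to 13.4, so that this KO library lies within the control range. For ZNF646, KO line 1 A stood at 2.98 CPM against 15.7 to 21.0 in the other KO libraries. For ZNF696, control line 2 B stood at 26.2 CPM against 13.9 to 17.4. For ZNF444, control line 2 C stood at 4.04 CPM against 15.1 to 20.4.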

How the results depend on the processing

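Of the settings tried, the number of ZNF genes past the threshold between KO and control at day 14 (33) stayed within 1.5 times under RLE scaling (35), no filter (33), DESeq2 (38), 4 line groups (41, of which 20 rose and 21 fell), without features above 1 percent of counts (35), without KO line 1 (22) or KO line 2 (34), and without any 1 library (24 to 34). It was 18 with counts summed per line, 16 with the wrong-strand covariate, 14 without control line 1 and 11 without control line 2. The genes that passed were not always the same. Of the 33, 28 passed with no filter, 29 with 4 line groups, 17 without KO line 1 and 24 without KO line 2. All 33 passed under RLE scaling, in DESeq2 and without features above 1 percent of counts. Leaving out the 4 KO libraries of high wrong-strand percent, a setting added after seeing the data, gave 26, of which 16 are among the 33. Between the KO lines 1 gene became 4 with no filter, 5 in DESeq2 and 0 to 2 without 1 library. The causes were not tested.

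With the replicate letter as a replicate block 28 genes passed, all among the 33. Libraries of the same letter did not deviate together (correlations -0.22 to 0.13, against -0.11 to 0.17 for different letters), so the letters were not taken to pair libraries.

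Genes that did not pass changed sign under some settings. ZNF814 (0.07) was at -0.0205 with no filter, -0.0109 with 4 line groups, -0.079 summed per line, -0.0672 without control line 2, -0.138 without KO line 2, -0.00304 to 0.129 without 1 library and -0.0514 without the KO libraries of high wrong-strand percent. ZNF891 was at -0.231 without KO line 1. ZNF521 was at -0.228 with the covariate and -0.535 without the high KO libraries, and ZNF384 at -0.354 and -0.387 under these, -0.0147 summed and -0.00246 without KO line 2.

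ZNF335 was at -0.00604 (no filter), -0.0132 (4 line groups), -0.0336 (summed), -0.106 (covariate), -0.142 (without control line 2), -0.333 (without KO line 1) and -0.0894 to 0.218 without 1 library. ZNF598 was at -0.0741, -0.0685, -0.207 and -0.121 under the first 4 of these, at -0.00257 with the replicate block, -0.121 without control line 2, -0.234 without KO line 2 and -0.366 to 0.23 without 1 library. ZNF592 was at -0.17 (4 line groups), -0.479 (covariate), -0.147 (without control line 2), -1.55 (without KO line 2), -1.39 (without the high KO libraries) and -0.0273 to 0.593 without 1 library. ZNF638 was at -0.0698 (no filter), -0.0904 (replicate block), -0.0232 (4 line groups), -0.135 (summed), -0.313 (without control line 2), -0.146 (without KO line 1), -0.0627 (without the high KO libraries) and -0.317 to 0.194 without 1 library. ZNF687 (-0.13) was at 0.226 without control line 1, 0.0285 without KO line 2 and -0.349 to 0.139 without 1 library.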

Other observations

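Other zinc finger families met the same count rule in smaller numbers. Of 9 ZSCAN genes, which join zinc fingers to a SCAN domain, 1 fell between KO and control at day 14 and none rose, and of 5 ZKSCAN genes 1 rose. Of 22 ZBTB genes tested, which join zinc fingers to a BTB domain, 1 rose and 4 fell. Of 6 ZFP genes tested, 1 fell. These shares stand beside 21.7% of all features, and whether the families differ was not tested.

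Opposite features of ZNF genes outside the rule also moved. ENSG00000267223, opposite ZNF536, rose by 2.55 on the log2 scale (SE 0.58, adjusted p = 0.00194), from 1.40 ± 1.13 to 8.56 ± 3.32 CPM (SD, n = 6 each, edgeR). ENSG00000269300, opposite ZNF558, had a log2 change of -1.17 (SE 0.24, adjusted p = 0.000586), from 33.3 ± 3.54 to 14.9 ± 3.60 CPM.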
